A study of Rattus norvegicus with 3 samples.

Results

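HILS1, a linker histone found in the testis, was mapped along the chromatin of elongating/condensing spermatids, and the peaks that lay near or inside 4 imprinted genes are described here. The genes are Snurf, Ube3a, Ppp1r9a and Rasgrf1. Their peaks were taken as all those whose nearest gene, as annotated with HOMER, was one of them. Of 32731 HILS1 peaks, 93 met this rule, 54 at Snurf, 33 at Ube3a, 6 at Ppp1r9a and 0 at Rasgrf1. Another 4 peaks, nearest to Ctsh, lay inside an intron of Rasgrf1 and are described with them. The genes were selected on HILS1 peaks of this same list, which were named for Snurf, Ube3a and Ppp1r9a or lay inside Rasgrf1, so the number of peaks, their folds and their repeats are given as a description, without a test.

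The chromatin was from testis of rats 50 to 60 days old. It was immunoprecipitated with anti-HILS1 antibodies in 2 replicates, and 1 input library, made without antibody, served as the control. The labels name no strain and do not say whether the replicates came from separate animals. The values are 1 list of regions shared by both replicates on the rat genome rn5, with 1 value per region, so the spread between replicates and the depth behind a peak are unknown. Intervals on shares (95%, Wilson) and on medians (95%, order statistics) cover counting error only, and neighbouring peaks are not independent.

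Imprinted genes are expressed from only the maternal or only the paternal copy, according to DNA methylation that is set differently in the female and the male germ line. In mouse and human, Snurf and Snrpn are read from a shared transcript of the paternal copy, and their start site is part of the imprinting centre of the Prader-Willi/Angelman domain. Ube3a encodes a ubiquitin ligase of the same domain that neurons express from the maternal copy. Ppp1r9a encodes neurabin, an actin-binding protein of neurons, beside the imprinted Peg10 and Sgce, and Rasgrf1 encodes an exchange factor for Ras that is expressed from the paternal copy in mouse. In spermatids, histones are being replaced by transition proteins and protamines. LINE-1 elements, which are retrotransposons, are the repeats in which most HILS1 peaks lay.

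Snurf and Snrpn share their 5′ end, and the naming of the peaks turns on it. The distances in the list imply a start site for Snurf at 202145402 on the minus strand of chromosome 1. Snrpn was nearest to only 1 peak, from which its strand cannot be told. If Snrpn is taken on the minus strand like Snurf, its start lay at 202145168, 234 bp away. On this reading, every peak upstream of the pair was nearest to Snurf and every peak downstream to Snrpn, until another gene was closer. RefSeq windows on GRCr8 show the same spacing. The Snurf window (chr1:120339104-120339403, minus strand) and the Snrpn window (chr1:120338870-120339169, minus strand) each hold 250 bases before and 50 after the start, and the capitals mark the 66 bases that both hold.
Snurf: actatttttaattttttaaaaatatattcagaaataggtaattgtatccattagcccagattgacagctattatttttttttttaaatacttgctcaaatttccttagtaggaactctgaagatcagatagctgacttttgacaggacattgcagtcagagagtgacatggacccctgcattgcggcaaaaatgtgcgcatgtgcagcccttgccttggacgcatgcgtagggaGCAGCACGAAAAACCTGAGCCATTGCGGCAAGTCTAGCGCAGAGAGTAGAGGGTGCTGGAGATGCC
Snrpn: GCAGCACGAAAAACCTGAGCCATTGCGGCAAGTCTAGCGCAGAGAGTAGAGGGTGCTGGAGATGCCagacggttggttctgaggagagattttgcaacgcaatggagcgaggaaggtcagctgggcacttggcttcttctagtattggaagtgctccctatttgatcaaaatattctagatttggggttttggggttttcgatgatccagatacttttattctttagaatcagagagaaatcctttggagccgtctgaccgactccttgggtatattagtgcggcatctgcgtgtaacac
No HILS1 peak of the list lay at this shared start. The closest was 125 kb away on the Snrpn side and 141 kb away on the Snurf side.

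The list does not place Snurf and Ube3a in a single domain. The start site implied for Ube3a was at 117746227 on the plus strand of chromosome 1, 84.4 Mb from that of Snurf. Between both start sites lay 1436 peaks, which carried 206 gene names besides Ube3a, Snrpn and Snurf. In the GRCr8 order of RefSeq genes, by contrast, 337 genes separate Ube3a from Snurf, 321 of them snoRNAs and 1 protein coding, and 0 of the 337 are named in the peak list. Which placement holds for the sequence under these peaks was not tested. The peaks named for Snurf and those named for Ube3a are therefore described as separate stretches of chromosome 1.

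At Snurf, all 54 peaks were intergenic and upstream of the start site, from 141 to 788 kb away, with a median distance of 621 kb against 199 kb over all peaks. They belonged to 44 called peaks, since 10 were later segments of a called peak and repeat its fold. A 1 Mb window of chromosome 1 with 64 peaks in all held every one of the 54. Only 63 of the 4777 gene names in the list were nearest to more peaks. Fold enrichment is the linear ratio that MACS gives to a called peak. All folds were multiples of 0.926, so no background particular to a peak can be read from them. At Snurf the median fold was 14.8 and the range 7.41 to 33.3, whereas the median over all peaks was 25.0 and the range 7.41 to 205. On the log2 scale the medians were 3.89 (95% CI 3.70 to 4.06) at Snurf and 4.64 (4.64 to 4.70) over all peaks. Windows of 1 Mb with at least 50 peaks, the Snurf window among them, had a median fold of 18.5 (4.21 on the log2 scale). Of the 54, 5 reached the median of all peaks (9.26%), a level that 53.1% of all peaks reached.

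LINE-1 elements held 26 of the 54 Snurf peaks (48.1%, 95% CI 35.4 to 61.1), against 77.6% of all peaks and 67.9% of the 4091 peaks on chromosome 1. Another 20 Snurf peaks (37.0%) lay in no annotated repeat, which was the case for 11.3% of all peaks. The remaining 8 lay in LTR retrotransposons (5 peaks), in the repeat RatSatRep2 (2 peaks) and in a simple repeat. The LINE-1 elements were also of other kinds than usual. Lx elements, older LINE-1 families of rodents, held 18 of the 26, and over the whole list 717 of 25398. L1_Rn, the family with the most peaks in the list, held 4 of the 26. In the list as a whole, windows of 1 Mb with at least 50 peaks had LINE-1 at 29.5% and no repeat at 39.0%, and the Snurf window was among 67 of these. The plot of repeat annotation sets the shares at each gene beside those of all peaks.

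**Figure D1:**
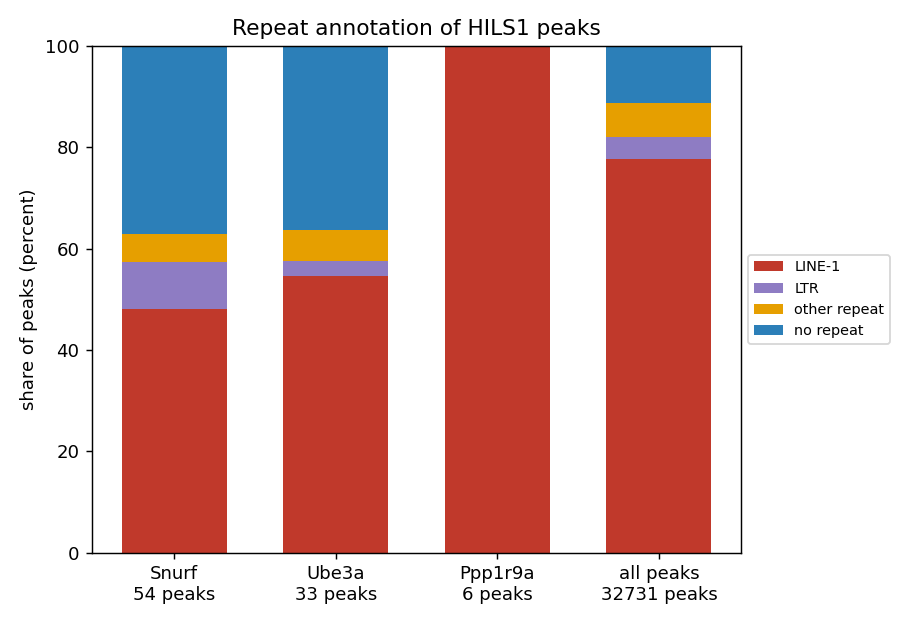
Share of HILS1 peaks (percent, bars stacked to 100) in LINE-1, LTR retrotransposons, other repeats or no repeat, for peaks nearest to Snurf (54), Ube3a (33) and Ppp1r9a (6), and for all 32731 peaks. LINE-1 took 48.1% at Snurf, 54.5% at Ube3a and 100% at Ppp1r9a, against 77.6% over all peaks.

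Along the Snurf stretch the peaks fell into 4 groups separated by gaps of more than 50 kb, a limit set after the positions had been seen. The group closest to the start site had 2 peaks of low fold, at 202286391 to 202287015 in Lx4A with a fold of 8.33 and at 202295722 to 202296085 in Lx7 with a fold of 7.41. The value of 7.41 is the lowest fold of the entire list. Then, 83.9 kb farther on, came 6 LINE-1 peaks within 28.3 kb, 4 in L1_Rn with folds of 24.1 to 26.9 and 2 in L1_Rat1 with folds of 19.4 and 16.7. These 6 were the only Snurf peaks in L1_Rn or L1_Rat1.

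After a gap of 289 kb without any peak of the list, 22 peaks lay within 79.0 kb (202696853 to 202775807), with folds of 9.26 to 18.5 and a median of 14.8. The called peaks on either side of the gap were numbers 4919 and 4926 in the order of MACS, so others between them are not in the list. Here 9 peaks were in no repeat and 9 in LINE-1, of which 8 were Lx elements. The longest Snurf peak, 3801 bp in Lx2B, lay in this group at 202737653 to 202741454 with a fold of 17.6. One called peak here was split into 3 segments, the first in no repeat and the other two in RMER17C-int, an LTR element, all at a fold of 16.7.

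The farthest group followed after 80.8 kb and held 24 peaks within 77.7 kb (202856561 to 202934221), with a median fold of 13.4. In it 11 peaks were in no repeat and 9 in LINE-1, 8 of the 9 in Lx elements. It also held the highest fold at Snurf, 33.3, shared by 3 segments of 1 called peak between 202861002 and 202863470, the first in no repeat and the next pair in RatSatRep2. Apart from these segments, the folds of this group stayed between 10.2 and 20.4. Distance and repeat thus changed together along the stretch: the L1_Rn and L1_Rat1 peaks lay 235 to 263 kb from the start site, and all 20 peaks without a repeat lay beyond 500 kb.

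Within Snurf, fold hardly differed between peaks in and outside LINE-1. The 26 in LINE-1 had a median fold of 15.3 and the 28 outside it one of 14.8, whereas over all peaks the medians were 26.9 in LINE-1 and 17.6 outside it. The Lx peaks at Snurf had a median of 12.5 over 18 peaks, against 17.6 over the 717 Lx peaks of the list. The 4 Snurf peaks in L1_Rn had a median of 25.5, against 30.6 over all 12192 in L1_Rn. The false discovery rate of the called peak was at most 10% for 32 of the 54 Snurf peaks (59.3%) and for 84.7% of all peaks. In windows of 1 Mb with at least 50 peaks the share was 72.0%. At the Snurf peak of lowest fold the rate reached 23.5%. The plot of fold by distance shows these groups.

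**Figure D2:**
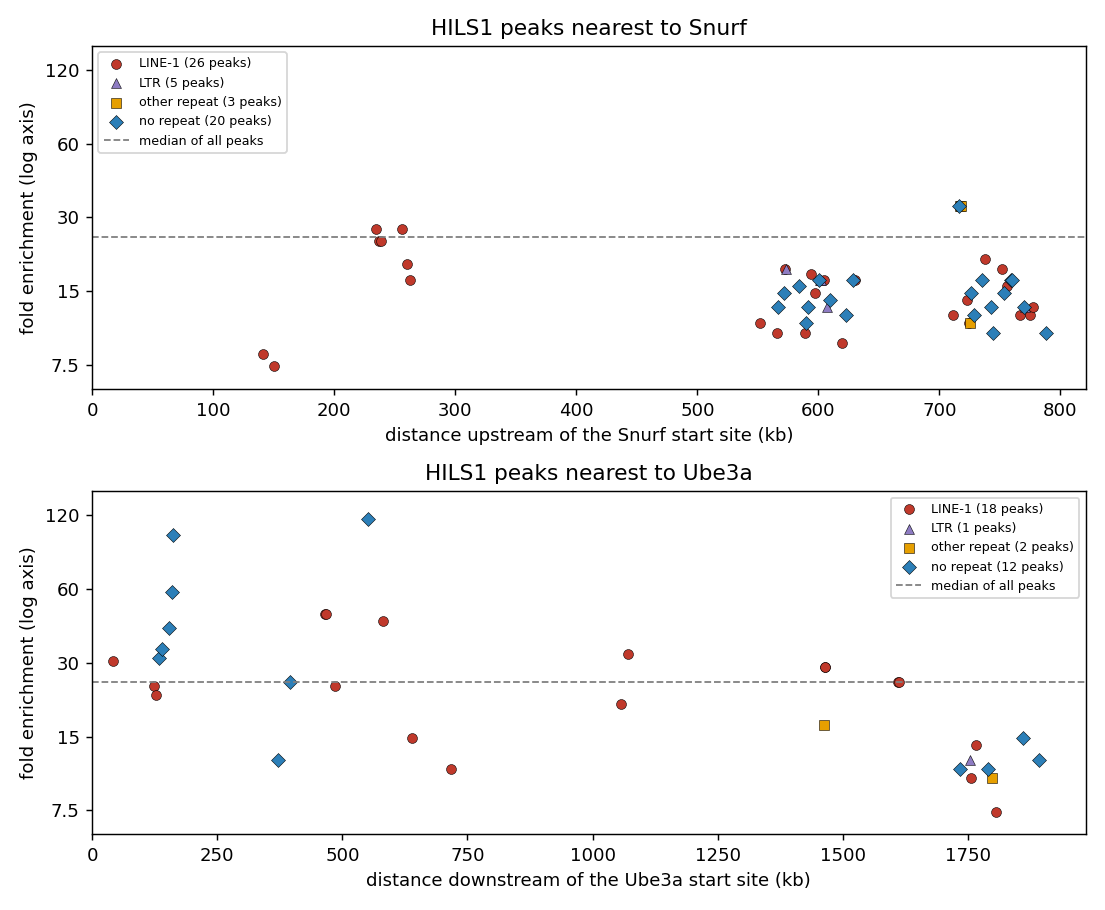
Fold enrichment of each HILS1 peak (log axis) against its distance in kb from the start site, upstream of Snurf (top, 54 peaks) and downstream of Ube3a (bottom, 33 peaks), with colour and marker for the repeat and a dashed line at the median of all peaks (25.0). Snurf peaks beyond 500 kb lay between 9.26 and 33.3, and the highest Ube3a peaks, at 99.1 and 116, were in no repeat.

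On the far side of the Snurf peaks the nearest gene changed without a break in the peaks, and on the Snrpn side after a gap of 265 kb. The last Snurf peak, at 202933341 to 202934221 and 788 kb from the start site, had a fold of 10.2 in no repeat. Just 3.49 kb farther, the next peak had a fold of 13.9, also in no repeat, and was named for LOC100271845, a hypothetical protein, from 786 kb away. That gene was nearest to 12 peaks, 7 of them in LINE-1, with a median fold of 18.5. On the other side, the 1 peak named for Snrpn, which encodes an RNA-splicing protein, lay at 202020268 to 202020979 in no repeat with a fold of 45.4, higher than any Snurf peak. Within 250 kb upstream of the Snurf start there were 5 peaks, all 5 in LINE-1, with folds of 7.41 to 26.9 and a median of 24.1. Within the same distance downstream of the Snrpn start there were 9 peaks, the other 8 nearest to Nupr1, a stress-response gene. None of the 9 was in LINE-1, 7 were in no repeat and 2 in CT-rich sequence. Their median fold was 52.8, between 14.8 and 107, and 8 of the 9 exceeded the highest fold at Snurf. In the GRCr8 order of RefSeq genes, 1309 genes separate Snurf from Nupr1. Whether the 8 peaks named for Nupr1 lie beside Snrpn in that assembly was not tested.

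At Ube3a, 33 peaks from 30 called peaks lay on the downstream side, from 42.5 kb to 1.89 Mb from the start site. Of these, 1 lay inside the gene, in intron 4 of 14 (117788332 to 117789155, an L1_Rn element, fold 30.6), and 32 were intergenic. This is 1 intronic peak of 33, and 13.9% of all peaks were intronic. Only 2.54% of all peaks were farther from their nearest start site than the last Ube3a peak. The folds at Ube3a spanned 7.41 to 116 and their median was 24.1, or 4.59 on the log2 scale (95% CI 3.89 to 4.93), and 16 of the 33 (48.5%) reached the median of all peaks.

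LINE-1 held 18 of the 33 Ube3a peaks (54.5%, 95% CI 38.0 to 70.2) and no repeat 12 (36.4%). Here 9 of the 18 were in L1_Rn, 3 in L1_Rat1 and 2 in L1_Rat2, and 4 in Lx elements. Peaks in L1_Rn at Ube3a had a median fold of 30.6, the same value as in L1_Rn over all peaks. The peaks without a repeat had a median fold of 28.2 at Ube3a, against 14.4 at Snurf and 16.7 over all 3708 such peaks. A false discovery rate of at most 10% was given for 20 of the 33 (60.6%).

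The strongest peaks at Ube3a lay in no annotated repeat. Between 117879396 and 117909508, within 30.1 kb, 5 such peaks followed each other with folds of 31.5, 34.3, 41.7, 58.3 and 99.1, each higher than the one before it. The fifth was 2926 bp long and 162 kb from the start site, and 150 peaks of the list had a higher fold. In front of this run lay 2 peaks in L1_Rn with folds of 24.1 and 22.2, below all 5. The highest fold of any peak at the 4 genes, 116, belonged to a peak of 2609 bp at 118297070 to 118299679, 552 kb downstream. Among the 3708 peaks in no repeat, 14 had a higher fold. The peak 27.7 kb behind it was in L1_Rn with a fold of 44.4, and 2 segments of 1 called peak in L1_Rn at 118210460 to 118215859 had a fold of 47.2.

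The folds did not follow the distance from Ube3a evenly. At 372 and 395 kb lay 2 peaks in no repeat with folds of 12.0 and 25.0, at 639 kb 1 in L1_Rn with 14.8 and at 717 kb 1 in Lx3A with 11.1. At 1057 to 1612 kb there were 7 peaks, 6 of them in L1_Rn, L1_Rat1 or L1_Rat2, and 1 in RatSatRep2, with folds of 16.7 to 32.4. The last 9 peaks, from 1733 to 1893 kb, had folds of 7.41 to 14.8, all under the median of all peaks. Of these, 4 were in no repeat, 3 in Lx elements, 1 in an LTR and 1 in a simple repeat. None of these 9 was in L1_Rn or L1_Rat1.

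The names beside Ube3a were those of Bex1 and Mir344b-1. The peak before the Ube3a peaks, at 117709032 to 117709732 in L1_Rat2, had a fold of 24.1 and lay 16.2 kb from a site named for Bex1, whose description in the list calls it X-linked although the peak is on chromosome 1. After the last Ube3a peak the list had none for 499 kb. The next, in L1_Rat1 with a fold of 31.5, was nearest to the microRNA gene Mir344b-1, from 2185 kb away.

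**Figure D3:**
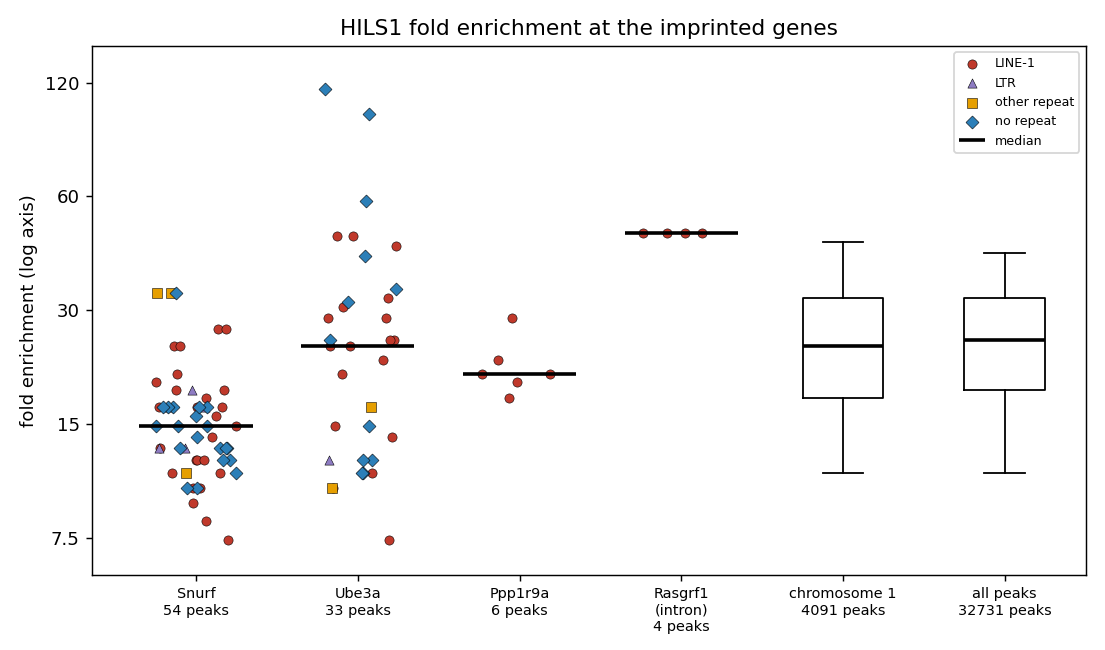
Fold enrichment (log axis) of each HILS1 peak nearest to Snurf, Ube3a or Ppp1r9a and of the 4 peaks in a Rasgrf1 intron, with medians as bars, beside boxes (quartiles, with whiskers at the 5th and 95th percentiles) for chromosome 1 and all peaks. Medians were 14.8, 24.1, 20.4 and 48.2 at the 4 genes and 24.1 and 25.0 in the boxes.

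The 9 intronic peaks of the other genes, from 5 called peaks, were all in LINE-1, as were 88.1% of all 4546 intronic peaks. At Ppp1r9a on chromosome 4, 5 of 6 peaks lay in intron 1 of 14, from 66.7 to 116 kb downstream of the start site, and the other was intergenic, 38.9 kb upstream, in L1_Rat2 with a fold of 17.6. The intronic peaks began with 1 at 29951304 to 29952241 in L1_Rn, the highest of the gene at a fold of 28.7. Next came 1 at 29972446 to 29973179 in RNHAL1, with a fold of 22.2. The last 3 lay close together between 29998275 and 30001274, all in L1_Rn, with folds of 20.4, 20.4 and 19.4, the first pair being segments of 1 called peak. Only 1 of the 6 reached the median of all peaks, and all 4 in L1_Rn were under the median of 30.6 for that family. The neighbouring peaks were nearest to Sgce, 280 kb before and in no repeat at a fold of 25.0, and to Pon2, a paraoxonase gene, 290 kb after and in L1_Rn at a fold of 30.6.

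At Rasgrf1 on chromosome 8, the 4 peaks lay in intron 15 of 26 between 96863492 and 96869618. All were segments of 1 called peak, in L1_Rn, and so share the fold of 48.2. This fold was higher than that of 97.6% of all peaks and than any fold at Snurf or Ppp1r9a, but below the highest at Ube3a (116). The median over all 12192 peaks in L1_Rn was 30.6. The 4 segments in Rasgrf1 were 1094, 1336, 682 and 2466 bp long. The nearest start site was that of Ctsh, the lysosomal protease cathepsin H, 71.4 to 75.7 kb away. Thus the rule by nearest gene gave Rasgrf1 0 peaks, and the annotated transcript gave it 4 that amount to a single called peak. No other peak of the list lay within 167 kb before or 326 kb after them.

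Of the other listed genes of the Prader-Willi/Angelman region, 6 that came before Ube3a differed from Ube3a in repeats. Before Ube3a on chromosome 1, the list had peaks nearest to Gabrg3 and Gabra5, which encode subunits of the GABA-A receptor, and to Tubgcp5, Cyfip1, Herc2 and Atp10a. Of the 33 peaks at Ube3a, 18 were in LINE-1 and 12 in no repeat, whereas of the 63 peaks nearest to these 6 genes 61 were in LINE-1 (96.8%) and 1 in no repeat. The median fold was 24.1 at Ube3a and 23.2 at these genes. Gabrg3 had the most, 30 peaks with a median fold of 21.3, and Tubgcp5 had 14, all in LINE-1, with one of 22.2. Peg12, an imprinted gene behind Ube3a, was nearest to 12 peaks, 10 of them in LINE-1, with folds of 10.2 to 66.7. The names directly beside Ube3a were not in the lists. Of these, Bex1 had 4 of 6 peaks in LINE-1 (66.7%) and Mir344b-1 had 24 of 30 (80.0%). The plot of peaks in gene order shows the count for each listed name.

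**Figure D4:**
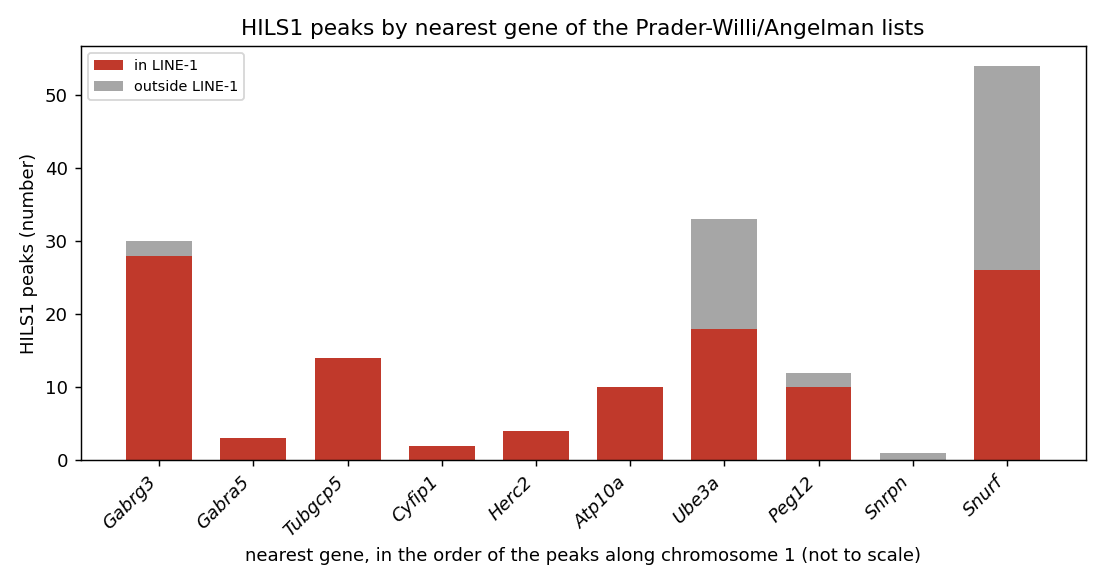
Number of HILS1 peaks in LINE-1 (red) and outside it (grey) by nearest gene, for 10 named genes of the Prader-Willi/Angelman lists in the order of their peaks along chromosome 1, not to scale. Outside LINE-1 there were 28 peaks at Snurf and 15 at Ube3a, and at most 2 at each of the other names.

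Over 94 imprinted genes and neighbours in 9 lists, 32 were named for at least 1 peak. Among protein-coding genes the share was 38.6% for the lists (32 of 83), 35.4% for the lists without the 4 genes described here and the peaks in the Rasgrf1 intron (28 of 79) and 16.7% for all 23148 in RefSeq, matched by symbol. Gene length and the distance between genes were not taken into account. RefSeq genes absent from the annotation behind the peak names could not be named, which was not corrected for either. By symbol, 4019 RefSeq genes of all kinds matched the 4777 names of the list. Without those genes and peaks, the lists had 28 named genes of 90, with 193 peaks of which 90.7% were in LINE-1 and a median fold of 25.0. Of the 9 genes listed as imprinted in the Prader-Willi/Angelman domain 5 were named, and of the 8 listed beside it 5. Of the 10 genes in the Peg10-Sgce list, 5 were named, among them Calcr, the calcitonin receptor gene, with 8 peaks and a median fold of 40.7. The list of the Igf2-H19 and Kcnq1 domains had 1 named gene of 15, the insulin gene Ins2, with 4 peaks, 3 of them in no repeat. The Igf2r list had 2 of 6, Slc22a2 and Slc22a3, with 2 peaks each. The Dlk1-Dio3 list had 2 of 7, with 5 peaks each at Begain and Dlk1, all in LINE-1. The list with Gnas, Nnat and H13 had 1 of 7, Blcap, whose 4 peaks shared a fold of 49.1. The Rasgrf1 list had 3 of 6, with 4 peaks at Ctsh, which are those in the Rasgrf1 intron, 2 at Tmed3 and 1 at Morf4l1. The Morf4l1 peak was on chromosome 13 and so not beside Rasgrf1. Among 26 further genes listed as imprinted 8 were named, led by the contactin gene Cntn3 with 34 peaks and Kcnk9, a potassium channel gene, with 11. Counted by the annotated transcript instead, and again without the 4 genes, 4 of the 79 protein-coding genes held a peak (5.06%). The share of all 23148 was 5.19%, with the same limits. These 4 held 23 peaks, 22 of them in LINE-1, beside 88.1% of all intronic peaks. Of the 4, 3 were listed beside the Prader-Willi/Angelman domain as not imprinted, and they held 18 of the 23 peaks. The 1 listed as imprinted was Cntn3, with 5 peaks, all 5 in LINE-1. All 10 peaks nearest to Atp10a, also listed as imprinted, were intronic, but 0 of them were assigned to Atp10a by transcript. The transcript could not be named for 438 of 4611 peaks.

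Likeness to Snurf was measured as the distance in LINE-1 share and median log2 fold, each scaled by its SD, over 318 gene names with at least 20 peaks. The closest was Opn5 on chromosome 9, with 75 peaks, 45.3% of them in LINE-1. Next came LOC301165 on chromosome 9, with 190 peaks and 45.3%, and Mir29b2 on chromosome 1, with 25 peaks and 44.0%. All 3 had the median fold of Snurf, 14.8.

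The counts depend on how close and how distant peaks are treated. Counting peaks less than 6000 bp apart once left 10 at Snurf, and peaks within 500 kb of the start site were 8 of the 54, all 8 in LINE-1. At Ube3a these counts were 23 and 13 of the 33.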

How the data were processed

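Reads of 2 HILS1 ChIP replicates and 1 input were trimmed and mapped by the authors to unique places of rn5 (Bowtie2) and PCR duplicates were dropped. MACS then called the peaks of each replicate against the input. The authors kept regions of overlap between both replicates and annotated these with HOMER, and the deposited regions ran from 100 to 4000 bp. The submitters' processing notes also name FastQC, Trim Galore, SAMtools and bedtools. The deposited fold enrichment is a linear ratio given by MACS to the whole called peak, and all folds were multiples of 0.926 within 0.01. The deposited score is the MACS score of the p-value, on which no result beyond 1 filter rests. The deposited false discovery rate is a percent. From which replicate these values came is not given in the sources used here.

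Peaks were assigned by the gene name that HOMER gives as nearest, and, for introns, by the annotated transcript named through RefSeq. Start sites were taken from peak centres and distances, with the strand of Snurf assumed for Snrpn. Repeats are those named by HOMER in the list; peaks named for none were counted as in no repeat. Medians of fold were taken on the linear scale, and medians of log2 fold, with their intervals, on the log2 scale. No test was made, since members, lists and alternatives were chosen with earlier results of these data known. The genes named are the 4 members, the names beside their peaks, up to 5 genes per list with the most peaks, and the 3 names most like Snurf; some of these are given only as counts. All 4 members had a promoter window in RefSeq. The choice of segments, the merging and the intervals of medians were tested on simulated data. Computations ran in Python 3.11.15 (pandas 2.3.3, numpy 2.4.6, scipy 1.17.1), and plots were drawn with matplotlib 3.10.9. There were 7 alternatives: only the longest segment per called peak; only scores from 100; only folds from 16; only false discovery rates up to 10%; only lengths from 500 bp; only distances under 500 kb; and peaks closer than 6000 bp merged into 1, with the values of the one of highest fold. The reads were not analysed here, and 1 listed gene is not reported.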

Additional observations from a re-analysis of the deposited data

How the results depend on the processing

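Of 56 values (8 results, each under 7 alternatives), 42 stayed within 1.5 times the reported count or within the interval of the reported share or median, and 14 moved. With a fold of at least 16, Snurf had 23 peaks, with a median log2 fold of 4.21, and Ube3a 21, where the threshold itself removes low values. When the false discovery rate was limited to 10%, Snurf had 32 peaks and Ube3a 20, with a median log2 fold of 4.95 at Ube3a. Counting peaks less than 6000 bp apart once left 10 at Snurf, of which 70.0% were in LINE-1, with a median of 4.17. Within 500 kb of the start site there were 8 peaks at Snurf, 100% of them in LINE-1, with a median of 4.44, and 13 at Ube3a with a median of 4.98. The Snurf share of LINE-1 was thus above that of all peaks only within 500 kb (80.0% over all peaks there), and under it in the other 6 alternatives. The causes were not tested beyond what each alternative removes. No value changed by more than this at Ppp1r9a, where LINE-1 took 100% under each alternative. No paired analysis was possible because the list holds 1 value per region for both replicates together, and for the same reason no replicate could be left out. The depth per library, and so the error of a fold, is unknown.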

Other observations

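MACS numbers called peaks in order along the chromosomes, and not every number is in the list. Between the first and the last number at Snurf, 44 of 65 numbers were present (67.7%), at Ube3a 30 of 52 (57.7%) and at Ppp1r9a 5 of 6, against 52.8% of 6002 on chromosome 1 and 53.0% over all chromosomes. The folds are steps of 0.926, so the lowest fold at Snurf is 8 steps and the highest at Ube3a 125 steps.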
